A study of Mus musculus with 12 samples.

Results

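Leukemia inhibitory factor (LIF) signalling was followed through 9 genes: the ligand Lif, the receptor subunits Lifr and Il6st, the kinases Jak1 and Jak2, the transcription factor Stat3, its feedback inhibitor Socs3, and the kinase genes Pim1 and Pim3. The genes were taken by name, and each was represented by the probe set that named no other gene and had the highest mean over all arrays. They are 9 of 19938 genes measured in this way. Total RNA of mouse cells was read on 12 Affymetrix gene arrays, 3 in each of 4 groups. The control was the day 0 group of induced pluripotent stem cells (iPSCs) before differentiation, that is, reprogrammed cells able to form the germ layers. The others were taken at day 4: iPSCs left to differentiate spontaneously, iPSCs given an optimized cardiac differentiation, and cells sorted by flow cytometry for surface FLK1 and PDGFRα as enriched cardiac progenitor cells (CPCs). No genotype, line or culture medium is named in the labels, so the presence of LIF in any culture is not known here.

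LIF binds a receptor made of LIFR and gp130, the product of Il6st, which activates the JAK kinases bound to it. These phosphorylate STAT3, which dimerises, enters the nucleus and switches on target genes, among them Socs3, whose product blocks the receptor complex. In mouse pluripotent cells this pathway holds back differentiation, and transcription factors such as Klf4 and Tfcp2l1 act below STAT3. Arrays measure RNA and not phosphorylated STAT3, so the values describe transcript levels of the pathway and not its activity.

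STAT proteins are known to bind palindromes of the form TTCNNNGAA, and the promoters of the genes were searched for these letters in RefSeq sequence (build GRCm38.p6, 250 bases before to 50 after each start, both strands). Lif, Stat3 and Socs3 lie on chromosome 11, Lifr and Pim3 on 15, Il6st on 13, Jak1 on 4, Jak2 on 19 and Pim1 on 17. The 9 genes had 11 promoters, and 1 of them, that of Socs3, held a match. Over all promoters of the same length 2726 of 32851 (8.3%) held one. Among 20 genes of a STAT3 target list described further on, 15 were in the promoter table with 19 promoters, of which 4 held a match: a pair of Sbno2 promoters and those of Zfp36 and Icam1. The tighter form TTCCNGGAA, which lies within the first, was in 0 promoters of the 9 genes, in 2 of the target list (Sbno2 and Icam1) and in 1.15% of all promoters. The stretches of Socs3 and Icam1 are shown. Of the genes with a match, only these were called lower in all 3 day 4 groups, as defined below. Klf4, Tfcp2l1, Bcl3 and Nr0b1 were called lower in these groups too, and their promoters held no match. The Socs3 stretch lies at chr11:117969367-117969616 on the minus strand and is the 250 bases before the start. The Icam1 stretch of 120 bases lies before the start at chr9:21015820-21015939 on the plus strand. Capitals mark the match, which begins 154 bases before the Socs3 start and 42 bases before the Icam1 start.
Socs3: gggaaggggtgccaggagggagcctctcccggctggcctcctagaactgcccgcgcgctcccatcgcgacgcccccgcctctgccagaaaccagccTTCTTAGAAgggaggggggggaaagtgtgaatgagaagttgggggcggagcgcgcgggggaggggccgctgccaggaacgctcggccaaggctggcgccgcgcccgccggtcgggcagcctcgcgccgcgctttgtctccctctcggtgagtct
Icam1: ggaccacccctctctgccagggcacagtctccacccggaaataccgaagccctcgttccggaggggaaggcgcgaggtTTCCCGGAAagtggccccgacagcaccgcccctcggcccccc
A match describes the letters and is not shown to be a bound site.

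Values are log2 RMA signals, so a difference of 1 is a 2-fold change, and errors are SDs over the 3 arrays of a group unless named SE. No background level was measured, and the median gene had a signal of 6.54 to 6.63 on these arrays. Nothing in the labels says that replicates came from separate cultures, so the spread that p-values rest on may be technical. Expression profiles within a group correlated across genes at 0.9656 or more, while 7, 14, 115 and 230 genes had a group SD above 1 at day 0 and in spontaneous, cardiac and sorted cells. The labelled sort was checked with Kdr, which encodes FLK1, and with Pdgfra, which encodes PDGFRα. Kdr signal was 10.23 in the library labelled sorted CPC replicate 1 but 6.25 and 6.03 in those labelled 2 and 3, against 5.5 to 5.78 at day 0. Cardiac replicate 1 was also near day 0, at 5.42. Pdgfra was at 11.13, 8.47 and 8.29 in sorted CPC replicates 1, 2 and 3, against 8.75 to 9.14 at day 0. In cardiac replicate 1 Pdgfra was at 9.42, above the day 0 values. Surface protein was not measured. The libraries are called by their labels, and the differences of the 9 genes in the sorted group are also given without those labelled sorted CPC 2 and 3, for the genes whose call or level turns on them.

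Compared with day 0, most of the 9 genes were lower at day 4, and Socs3 fell in every group. A gene was called when limma's moderated test over all 12 arrays gave an adjusted p under 0.05 (two-sided, Benjamini-Hochberg over all 19938 genes) and the log2 difference was at least 1 in size. In spontaneous cells Jak2 rose and Socs3 and Pim1 fell (1 higher and 2 lower of 9), where 1.99% of all genes were called higher and 1.57% lower. In cardiac cultures Socs3 fell (1 of 9, where 0.943% of all genes were called lower and 1.26% higher). In sorted cells Lifr, Stat3 and Socs3 fell (3 of 9, where 1.32% of all genes were called lower and 0.787% higher). At an adjusted p under 0.05 with a difference of any size there were 5, 3 and 4 of the 9 genes in spontaneous, cardiac and sorted cells, beside 9.75%, 6.17% and 5.11% of all genes. Genes whose arrays all lay below day 0 numbered 6, 5 and 5 of 9, beside 21.6%, 16.2% and 11.3% of all genes. The median difference of the 9 genes was -0.49, -0.58 and -0.82 in spontaneous, cardiac and sorted cells, beside -0.03, -0.05 and 0.03 over all genes. The difference was negative for 8 of the 9 genes in each comparison, Jak2 being the exception. All 3 comparisons use the same day 0 arrays, so they are not independent of each other. Lifr, Stat3 and Socs3 were lower on all 9 day 4 arrays than on all day 0 arrays, as were 5.15% of all genes. In these bulk samples, fewer cells that express a gene and less RNA per cell cannot be told apart.

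**Figure D1:**
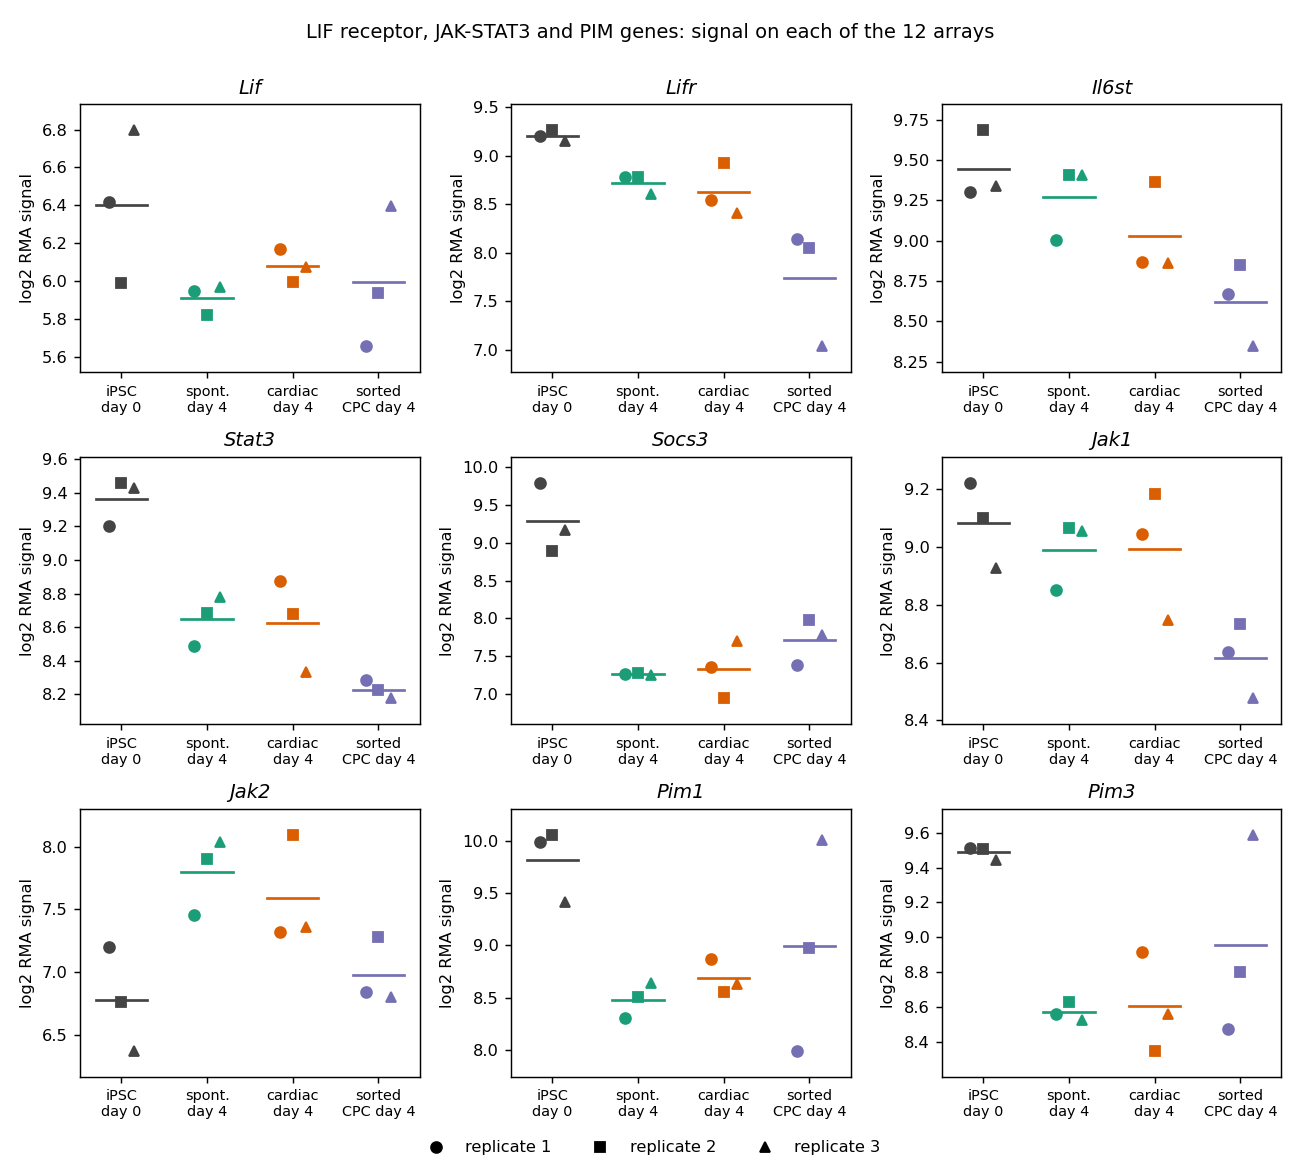
Log2 RMA signal of the 9 genes on each of the 12 arrays, in 4 groups of 3 (iPSC day 0, spontaneous, cardiac and sorted CPC day 4); symbols are replicates, lines are group means, and each panel has its own vertical axis. Socs3, Stat3 and Lifr lie above all day 4 arrays at day 0, and Pim1 and Pim3 spread widely in the sorted group.

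Lif itself was dim. Its signal was 6.42, 5.99 and 6.80 at day 0, 5.95, 5.83 and 5.97 in spontaneous cells, 6.17, 6.0 and 6.08 in cardiac cultures, and 5.66, 5.94 and 6.40 in sorted cells. All of these but 1 day 0 value were below the median gene, and the day 0 arrays overlapped with the cardiac and sorted arrays but not with the spontaneous ones. Its differences from day 0 were -0.49, -0.32 and -0.40 in spontaneous, cardiac and sorted cells (adjusted p = 0.155, 0.362 and 0.301), and none was called. With the libraries labelled sorted CPC 2 and 3 left out, the sorted difference of Lif was -0.74.

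Lifr, the subunit that binds LIF, had a signal of 9.20, 9.26 and 9.15 at day 0, 8.78, 8.78 and 8.61 in spontaneous cells, 8.55, 8.92 and 8.41 in cardiac cultures, and 8.14, 8.05 and 7.04 in sorted cells. The sorted arrays lay below every other array, and the spontaneous and cardiac arrays overlapped each other and lay between. Lifr fell in sorted cells by 1.46 ± 0.24 (SE) on the log2 scale, 2.75-fold (95% interval of the difference -1.98 to -0.94, adjusted p = 0.00408). In spontaneous cells its difference was -0.48 (adjusted p = 0.247) and in cardiac cultures -0.58 (adjusted p = 0.179), neither called. The limma test pools the spread of all groups, the sorted group included. Over the 12 arrays left out in turn these adjusted p ran from 0.0369 to 0.476 and from 0.0214 to 0.354. Neither difference reached the minimum size in any of these fits. The order of means was 9.20 ± 0.06 at day 0, 8.72 ± 0.10 spontaneous, 8.63 ± 0.27 cardiac and 7.74 ± 0.61 sorted. The lowest value came from the library labelled sorted CPC replicate 3, and with the libraries labelled 2 and 3 left out the difference was -1.07 (adjusted p = 0.00918), still called.

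Il6st encodes gp130, the signal-transducing subunit shared by the receptors of the interleukin-6 family. It measured 9.30, 9.68 and 9.34 at day 0, 9.01, 9.40 and 9.41 in spontaneous cells, 8.87, 9.36 and 8.86 in cardiac cultures, and 8.67, 8.85 and 8.35 in sorted cells. The sorted arrays were the lowest, and the spontaneous and cardiac arrays overlapped with day 0. Its sorted difference of -0.82 ± 0.19 (SE) had an adjusted p of 0.0234 but did not reach the minimum size of 1. Over the 12 arrays left out in turn it ran from -0.93 to -0.68 (limma, adjusted p from 0.0142 to 0.108). Without the libraries labelled sorted CPC 2 and 3 it was -0.77. The spontaneous and cardiac differences were -0.17 and -0.41 (adjusted p = 0.638 and 0.215).

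The JAK kinases differed from each other in pattern. Jak1, the main kinase of gp130 receptors, measured 9.22, 9.10 and 8.93 at day 0, 8.85, 9.07 and 9.05 in spontaneous cells, 9.05, 9.18 and 8.75 in cardiac cultures, and 8.64, 8.73 and 8.48 in sorted cells. Its sorted arrays lay below all others, by a narrow margin to 1 cardiac array, while the remaining groups overlapped. No Jak1 difference from day 0 was called: -0.09, -0.09 and -0.47 in spontaneous, cardiac and sorted cells (adjusted p = 0.748, 0.719 and 0.0861). The 95% intervals of the first pair, -0.41 to 0.22 and -0.40 to 0.22, leave out changes of 2-fold.

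Jak2, a kinase that also serves many hormone receptors, was the gene with positive differences. It measured 7.20, 6.76 and 6.37 at day 0, 7.45, 7.90 and 8.04 in spontaneous cells, 7.32, 8.10 and 7.36 in cardiac cultures, and 6.84, 7.28 and 6.80 in sorted cells. Spontaneous and cardiac arrays all lay above day 0, whereas the sorted arrays overlapped with it. Jak2 rose in spontaneous cells by 1.02 ± 0.25 (SE), 2.03-fold (adjusted p = 0.0233). The cardiac difference of 0.82 (adjusted p = 0.0762) and the sorted difference of 0.20 (adjusted p = 0.743) were not called. With the libraries labelled sorted CPC 2 and 3 left out, the sorted difference of Jak2 was 0.065. The spontaneous call sat at the minimum size and was lost without day 0 replicate 2 (adjusted p = 0.0764) or 3 (0.0885), without spontaneous replicate 2 (0.0946) or 3 (0.105), and by size alone after a repeated quantile normalization (0.96) or cyclic loess (0.998).

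Stat3, the transcription factor of the pathway, was lower in every day 4 array. It measured 9.20, 9.46 and 9.43 at day 0, 8.49, 8.69 and 8.78 in spontaneous cells, 8.88, 8.68 and 8.33 in cardiac cultures, and 8.29, 8.22 and 8.18 in sorted cells. No day 4 array reached the lowest day 0 value, and the sorted arrays lay below those of the other day 4 groups, which overlapped. Stat3 fell in sorted cells by 1.14 ± 0.15 (SE), 2.20-fold (95% interval -1.46 to -0.81, adjusted p = 0.00131). In spontaneous and cardiac cells the differences of -0.71 ± 0.15 and -0.74 ± 0.15 (SE) had adjusted p of 0.0116 and 0.014 but were under the minimum size. The sorted call held with each of the 12 arrays left out in turn and with the libraries labelled sorted CPC 2 and 3 left out (-1.08, adjusted p = 0.0135).

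Socs3, the STAT3-induced inhibitor of the receptor complex, had the largest differences of the 9 genes from day 0 in all 3 comparisons. It measured 9.79, 8.89 and 9.16 at day 0, 7.27, 7.28 and 7.26 in spontaneous cells, 7.36, 6.95 and 7.70 in cardiac cultures, and 7.39, 7.97 and 7.79 in sorted cells. Every day 4 array was below every day 0 array, and the 3 spontaneous arrays were nearly equal. Socs3 fell by 2.01 ± 0.24 (SE) in spontaneous cells, 4.03-fold (95% interval -2.52 to -1.49, adjusted p = 0.000664). It fell by 1.94 in cardiac cultures, 3.85-fold (adjusted p = 0.000902), and by 1.56 in sorted cells, 2.95-fold (adjusted p = 0.00278). These calls held with each of the 12 arrays left out in turn, and with the libraries labelled sorted CPC 2 and 3 left out, where the sorted difference was -1.89 (adjusted p = 0.0067). A second Socs3 probe set was dim, with 7.09, 6.89 and 6.54 at day 0 and 6.09 to 6.72 at day 4. Averaging it in took the sorted difference to -0.98, under the minimum size (adjusted p = 0.00943), and the spontaneous and cardiac differences to -1.18 and -1.22, smaller but still called.

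Pim1 and Pim3 encode serine/threonine kinases that promote survival and growth and are induced by STAT proteins. Pim1 measured 9.99, 10.06 and 9.42 at day 0, 8.30, 8.51 and 8.64 in spontaneous cells, 8.87, 8.55 and 8.63 in cardiac cultures, and 7.99, 8.98 and 10.01 in sorted cells. Spontaneous and cardiac arrays lay below day 0, while the sorted arrays ran from the lowest value of all to the second highest. Pim1 fell in spontaneous cells by 1.34 ± 0.36 (SE), 2.54-fold (adjusted p = 0.0351), and its cardiac and sorted differences were -1.14 and -0.83 (adjusted p = 0.0856 and 0.234). The spontaneous call was lost without day 0 replicate 1 (adjusted p = 0.12) or 2 (0.125), without spontaneous replicate 1 (0.105), 2 (0.104) or 3 (0.0827), and without cardiac replicate 3 (0.0535). With the other arrays left out it held, and the limma adjusted p went as low as 0.00358. The spread behind this test pools all groups, with SDs of 0.35 at day 0, 0.17 in spontaneous and cardiac cells, and 1.01 in sorted cells. The cardiac difference was called without sorted CPC replicate 1 (adjusted p = 0.0154) or 3 (0.0117), and the sorted difference without sorted CPC replicate 3 (-1.34, adjusted p = 0.0107).

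Pim3 measured 9.51, 9.51 and 9.45 at day 0, 8.56, 8.63 and 8.52 in spontaneous cells, 8.92, 8.35 and 8.56 in cardiac cultures, and 8.47, 8.80 and 9.59 in sorted cells. As with Pim1, the library labelled sorted CPC replicate 3 reached the day 0 level while the other sorted and all spontaneous and cardiac arrays were below it. The spontaneous and cardiac differences of -0.92 ± 0.23 and -0.88 ± 0.23 (SE) had adjusted p of 0.024 and 0.0406 but were under the minimum size, and the sorted difference was -0.54 (adjusted p = 0.224). The spontaneous difference was called after a repeated quantile normalization (-1.02, adjusted p = 0.0296) and after cyclic loess (-1.03, adjusted p = 0.0378). Without cardiac replicate 1 the cardiac difference was called (-1.04, adjusted p = 0.024).

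**Figure D2:**
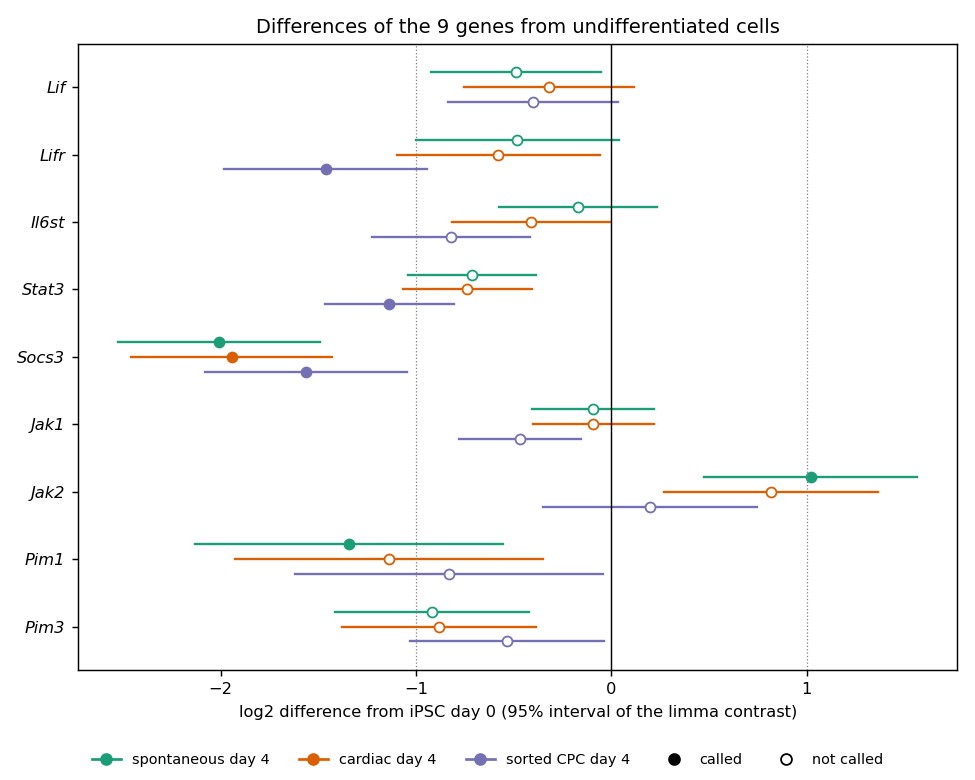
Log2 difference of each of the 9 genes from iPSC day 0 in spontaneous, cardiac and sorted CPC day 4 cells; points are limma estimates from 3 arrays per group, bars are 95% intervals, filled points were called and dotted lines mark the minimum difference of 1. Socs3 is called in all 3 groups, Lifr and Stat3 in sorted cells, and Jak2 and Pim1 in spontaneous cells.

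Immediate early genes, which respond within minutes to stimulation or handling of cells, also spread over the sorted libraries. The summed level of 7 such genes (Fos, Fosb, Egr1, Jun, Ier2, Atf3 and Dusp1; log2 of the mean linear signal) was 8.84 to 9.26 at day 0, 7.43 to 7.79 in spontaneous cells and 7.72 to 7.93 in cardiac cultures. It was 8.41, 8.90 and 9.29 in the libraries labelled sorted CPC 1, 2 and 3. Their signals were above the median gene on every array of the group for all 7 genes at day 0 and in the sorted group, and for 5 genes in each of the other groups. All 7 had higher means in sorted than in cardiac and in spontaneous cells. The genes of the list did not share 1 order over the sorted libraries. The summed level was highest in replicate 3 through Dusp1 (10.95) and Atf3 (9.21), and Egr1 was also highest there (8.47). Fos, Fosb, Jun and Ier2 were highest in replicate 2, and Fosb was at 7.90, 8.59 and 7.10 against 8.88 to 9.55 at day 0. Lifr had its lowest value in replicate 3, where Pim1, Pim3 and the summed level were highest. The part of handling in these values was not tested.

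**Figure D3:**
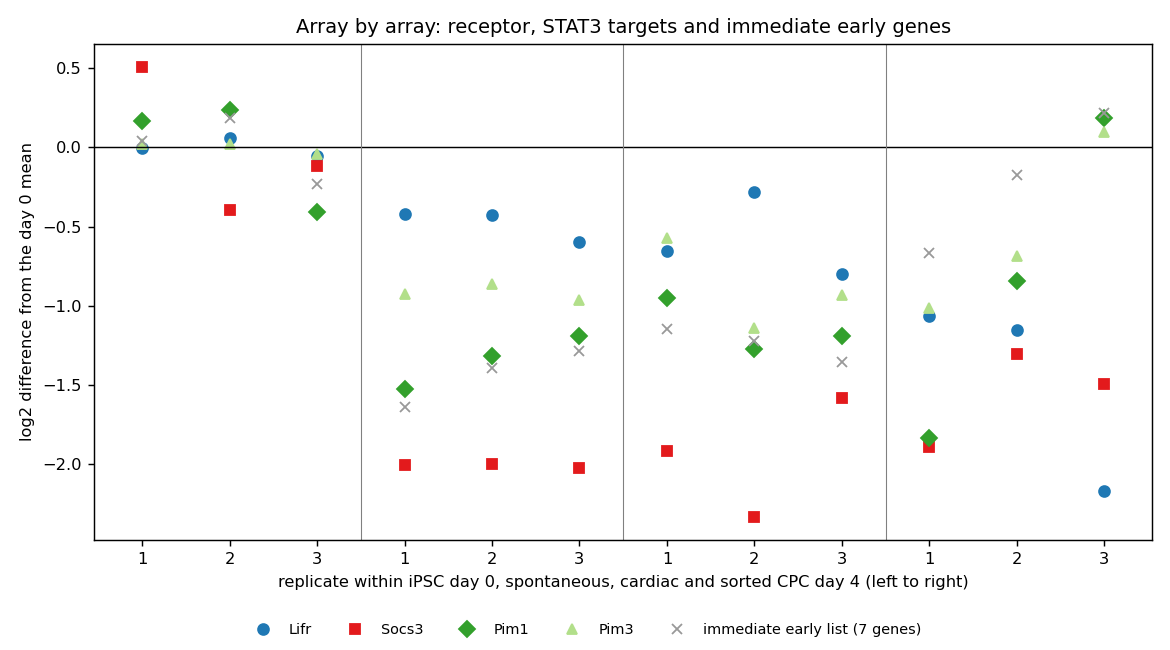
Log2 difference from the day 0 mean of Lifr, Socs3, Pim1, Pim3 and the summed level of 7 immediate early genes, 1 column per array, with groups in the order iPSC day 0, spontaneous, cardiac and sorted CPC day 4. In the library labelled sorted CPC replicate 3, Pim1, Pim3 and the summed level of the immediate early genes, which Dusp1 and Atf3 raise there, are at the day 0 level while Lifr has its lowest value and Socs3 remains low.

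None of the 9 genes was called between day 4 groups, where limma called 0 genes (0%) between cardiac and spontaneous cells, 0 (0%) between sorted and cardiac cells and 1 (0.00502%) between sorted and spontaneous cells. At an unadjusted p under 0.05 there were 743, 3135 and 2310 genes (3.73%, 15.7% and 11.6%). Cardiac and spontaneous cells were close in all 9 genes, with differences from -0.24 (Il6st) to 0.21 (Pim1). Lifr was 0.88 ± 0.24 (SE) below cardiac cultures in sorted cells (95% interval -1.40 to -0.36, adjusted p = 0.265) and 0.98 ± 0.24 (SE) below spontaneous cells (-1.5 to -0.46, adjusted p = 0.295). Without the library labelled sorted CPC replicate 3 these differences were -0.53 and -0.63, and without those labelled 2 and 3 they were -0.49 and -0.58. Lifr, Il6st, Stat3, Jak1 and Jak2, that is the receptor subunits, both kinases and the transcription factor, were lower on every sorted array than on every cardiac array (5 of 9 genes, where 5.3% of all genes were), and likewise against spontaneous cells (5 of 9, where 10.2% were). The highest sorted and lowest cardiac values were close for Il6st (8.85 and 8.86), Stat3 (8.29 and 8.33), Jak1 (8.73 and 8.75) and Jak2 (7.28 and 7.32). Il6st, Stat3, Jak1 and Jak2 differed between sorted and cardiac cells by -0.41, -0.40, -0.38 and -0.62 (adjusted p = 0.314, 0.288, 0.288 and 0.294). Between sorted and spontaneous cells their differences were -0.65, -0.42, -0.38 and -0.82 (adjusted p = 0.309, 0.357, 0.375 and 0.321). Without the libraries labelled sorted CPC 2 and 3 they were -0.36, -0.34, -0.36 and -0.75 from cardiac and -0.60, -0.37, -0.35 and -0.95 from spontaneous cells. Socs3, Pim1 and Pim3, which STAT3 is known to induce, had differences of the opposite sign. In sorted against cardiac cells they were 0.38, 0.31 and 0.34 (adjusted p = 0.412, 0.663 and 0.437), and against spontaneous cells 0.45, 0.51 and 0.38 (adjusted p = 0.468, 0.548 and 0.494). Socs3 was above every spontaneous array in the sorted group, as were 9.44% of all genes. These differences were smaller or of the other sign without the libraries labelled sorted CPC 2 and 3. Socs3 was then at 0.055 from cardiac and 0.12 from spontaneous cells, and the Pim1 and Pim3 differences were -0.70 and -0.14 from cardiac and -0.49 and -0.10 from spontaneous cells.

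Leaving out the libraries labelled sorted CPC 2 and 3, whose Kdr was low, leaves 1 sorted library that is assumed to vary like the other groups. In that fit Lifr, Stat3, Socs3, Pim1 and Pim3 were all called lower in the sorted library than at day 0 (5 of 9, where 2.74% of all genes were), with Pim1 at -1.83 (adjusted p = 0.00243) and Pim3 at -1.02 (adjusted p = 0.0115). In cardiac cultures Socs3 and Pim1 were then called (2 of 9, where 1.16% of all genes were called lower). With cardiac replicate 1 also left out, the sorted calls among the 9 genes were the same 5 (where 3.14% of all genes were called lower), and Socs3, Pim1 and Pim3 were called in cardiac cultures (3 of 9, where 1.58% of all genes were called lower).

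A list of 39 further genes of the pathway held gp130 ligands and receptors, JAK and STAT genes, and inhibitors and adaptors, of which 34 were measured (10 of 13, 6 of 8 and 18 of 18). In each comparison with day 0, Stat4 was called lower and the other 33 were not called (1 of 34, where 1.57%, 0.943% and 1.32% of all genes were called lower in spontaneous, cardiac and sorted cells). The list's median difference was -0.07, -0.11 and -0.05, beside -0.03, -0.05 and 0.03 over all genes. Stat4, a STAT best known from lymphocytes, measured 6.98, 6.84 and 6.62 at day 0, 4.85, 4.78 and 4.71 in spontaneous cells, 5.79, 4.79 and 5.26 in cardiac cultures, and 4.35, 5.38 and 4.69 in sorted cells. All day 4 arrays lay below day 0 and below the median gene. Stat4 fell in the 3 groups, with differences of -2.04, -1.53 and -2.00 (adjusted p = 0.00074, 0.00418 and 0.000964). With sorted CPC replicate 3 left out the sorted comparison had 2 called genes of this list. With the libraries labelled sorted CPC 2 and 3 left out, the sorted difference of Stat4 was -2.47. In the remaining sorted library Stat6, Pias3 and Gab1 were at 6.56, 6.53 and 8.63. Their day 0 values were 7.61 to 7.97, 7.40 to 7.71 and 10.06 to 10.11.

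Among the pathway genes that were not called, those with the highest mean signal were Pias2, Gab1, Socs2 and Ptpn11. Ptpn11 encodes SHP2, a phosphatase that links gp130 to the MAP kinase cascade, and measured 8.56 ± 0.05 at day 0, 9.33 ± 0.07 in spontaneous, 9.18 ± 0.29 in cardiac and 9.11 ± 0.04 in sorted cells. Its arrays at day 4 all lay above day 0, with differences of 0.77, 0.61 and 0.55 (adjusted p = 0.00545, 0.0229 and 0.0393), under the minimum size. Pias2, of a family of STAT inhibitors, differed by -0.55, -0.46 and -0.69 (adjusted p = 0.0256, 0.0726 and 0.0126). Gab1, an adaptor that works with SHP2, differed by -0.89, -0.39 and -0.78 (adjusted p = 0.0521, 0.39 and 0.119). Socs2, an inhibitor of growth hormone signalling, spread from 7.96 to 10.67 within the sorted group and differed by 0.13, 0.32 and 0.35 (adjusted p = 0.921, 0.752 and 0.804). Osmr, the subunit that pairs with gp130 for oncostatin M, was dim but even, at 5.56 ± 0.03 against 4.73 ± 0.07, 4.85 ± 0.11 and 4.85 ± 0.05, and its differences of -0.83, -0.71 and -0.70 had adjusted p of 0.000431, 0.000978 and 0.000913. It was singled out after its values were seen.

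Genes that STAT3 is known to regulate in pluripotent or other cells formed a list of 20, of which 19 were measured. In spontaneous cells 7 fell (Klf4, Klf5, Tfcp2l1, Bcl3, Mcl1, Nr0b1 and Icam1) and Myc rose, where 1.57% of all genes were called lower and 1.99% higher. In cardiac cultures 6 fell, the same without Mcl1, and Pim2 rose, where 0.943% of all genes were called lower and 1.26% higher. In sorted cells those 6 fell and 0 rose, where 1.32% were called lower and 0.787% higher. The list's median difference was -0.47, -0.59 and -0.41, beside -0.03, -0.05 and 0.03 over all genes. Many of these genes also mark pluripotent cells, so less STAT3 input and fewer pluripotent cells cannot be told apart in it. The summed level of 8 pluripotency markers (Pou5f1, Nanog, Sox2, Zfp42, Esrrb, Dppa5a, Tdgf1 and Utf1; log2 of the mean linear signal) was 11.47 to 11.51 at day 0, 9.97 to 10.47 in spontaneous cells, 10.36 to 10.92 in cardiac cultures and 10.42 to 11.10 in sorted cells. All of 8, 7 of 8, 7 of 8 and 6 of 8 markers were above the median gene on every array of these groups. The median difference of the 8 markers from day 0 was -1.56, -1.14 and -1.45 in spontaneous, cardiac and sorted cells. Of the 8, 4, 3 and 3 were called lower in these groups, beside 1.57%, 0.943% and 1.32% of all genes. The markers' part in the list's values was not tested.

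Klf4, a reprogramming factor downstream of STAT3, measured 9.77, 10.40 and 9.55 at day 0, 7.63, 7.56 and 7.66 in spontaneous cells, 8.35, 6.96 and 7.72 in cardiac cultures, and 7.71, 7.76 and 7.52 in sorted cells. Every day 4 array was more than 1 log2 unit below every day 0 array. Klf4 fell in all 3 groups, with differences of -2.29, -2.23 and -2.24 (adjusted p = 0.00074, 0.00108 and 0.00106). Icam1, an adhesion molecule whose promoter stretch is shown above, measured 9.66, 8.97 and 8.90 at day 0, 7.14, 7.31 and 7.36 in spontaneous cells, 8.18, 7.27 and 7.56 in cardiac cultures, and 7.21, 7.64 and 7.63 in sorted cells. Here too the day 4 arrays did not reach day 0. Icam1 fell in all 3 groups, by differences of -1.91, -1.5 and -1.68 (adjusted p = 0.00074, 0.00352 and 0.0021). Bcl3, a nuclear partner of NF-kappaB, fell with differences of -1.41, -1.41 and -1.23 (adjusted p = 0.00074, 0.00104 and 0.00219). The calls of Klf4, Icam1 and Bcl3 held with each of the 12 arrays left out in turn.

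Leaving out each array in turn also kept the calls of Mcl1 in spontaneous cells, Klf5 in cardiac cultures, and Tfcp2l1 and Nr0b1 in sorted cells, with adjusted p of at most 0.0174, 0.0352, 0.0402 and 0.0479. Each of the other target calls was lost without at least 1 array. Tfcp2l1, a factor that maintains naive pluripotency, fell with differences of -2.04, -1.93 and -2.48 (adjusted p = 0.0163, 0.0299 and 0.00878), and Nr0b1, which encodes the nuclear receptor DAX1, fell with differences of -2.80, -2.92 and -3.98 (adjusted p = 0.0395, 0.0449 and 0.0108). Klf5, a further pluripotency factor of the Klf family, fell with differences of -1.21, -1.43 and -1.16 (adjusted p = 0.0109, 0.00628 and 0.0195). Mcl1, a survival gene of the Bcl2 family, fell by 1.15 in spontaneous cells (adjusted p = 0.00266) and was at -0.70 and -0.81 in the other groups (adjusted p = 0.0414 and 0.0226). Myc, a driver of growth, rose by 1.85 in spontaneous cells (adjusted p = 0.0458) and its other differences were 0.78 and 1.36 (adjusted p = 0.4 and 0.182). Pim2, the third PIM kinase gene, rose by 2.45 in cardiac cultures (adjusted p = 0.0225). Its arrays were at 7.95, 7.91 and 8.49 at day 0, 10.62, 9.15 and 9.26 in spontaneous cells, 10.56, 10.38 and 10.76 in cardiac cultures, and 10.11, 11.34 and 8.45 in sorted cells. The cardiac arrays all lay above day 0, opposite to Pim1 and Pim3, whose cardiac arrays all lay below it. Its spontaneous and sorted differences of 1.56 and 1.85 were not called (adjusted p = 0.099 and 0.079).

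Leaving out 1 array took the spontaneous target count from 8 to between 4 and 9 and the cardiac count from 7 to between 4 and 8. It was 5, 4, 5 and 4 in spontaneous cells without day 0 replicate 1, day 0 replicate 2, spontaneous replicate 1 and spontaneous replicate 2, and 4 in cardiac cultures without day 0 replicate 1 or 2 or without cardiac replicate 2 or 3. The adjusted p of calls so lost was 0.0523 and 0.0563 for Klf5 in spontaneous cells and 0.0511 to 0.0876 in sorted cells. It was 0.0604 to 0.0688 and 0.0571 to 0.124 for Tfcp2l1 in spontaneous and cardiac cells, 0.0558 to 0.139 and 0.0545 to 0.179 for Nr0b1 in the same groups, 0.0554 to 0.166 for Myc and 0.0641 to 0.0868 for Pim2. With other arrays left out the limma adjusted p in these groups went down to 0.00178 and 0.00303 for Tfcp2l1. For Nr0b1 it went down to 0.00423 and 0.00418. The pooled spread includes the sorted arrays, whose SDs were 1.19 for Tfcp2l1 and 2.07 for Nr0b1. Without the libraries labelled sorted CPC 2 and 3, 1 sorted library remained. Its differences from day 0 were -2.20 (Klf4), -1.74 (Klf5), -3.77 (Tfcp2l1), -1.24 (Bcl3), -5.49 (Nr0b1) and -1.97 (Icam1). In that library Mcl1 was at 10.49, below its day 0 values of 11.41 to 11.59. Sall4 was at 10.96 and Pim2 at 10.11 there, above their day 0 values of 9.50 to 10.13 and 7.91 to 8.49. Sall4, Ccnd1, Smad7 and Bcl2l1 were in no comparison of all 12 arrays called. With a replicate block, Nr0b1 lost its spontaneous and cardiac calls (adjusted p = 0.0515 and 0.0568).

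**Figure D4:**
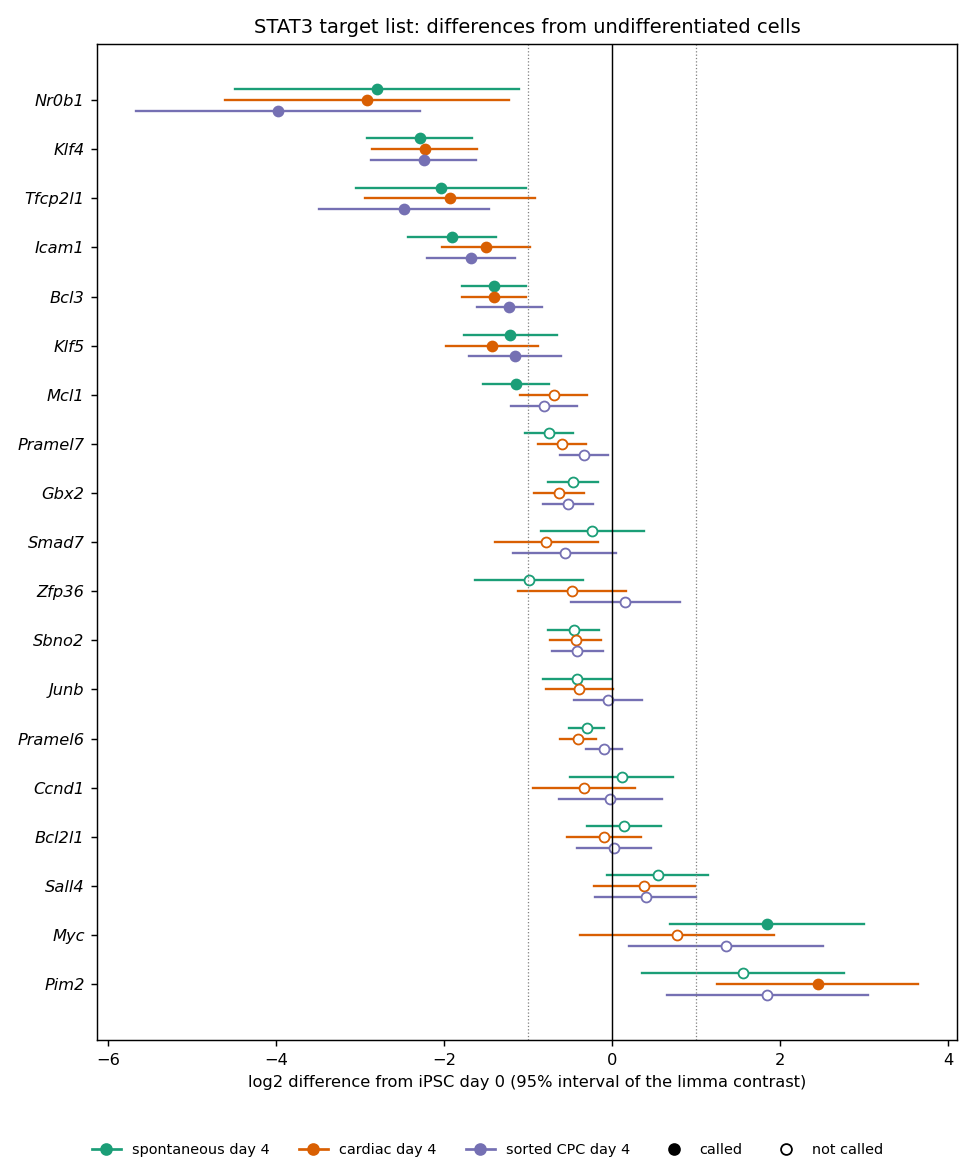
Log2 difference of 19 genes of the STAT3 target list from iPSC day 0 in spontaneous, cardiac and sorted CPC day 4 cells; points are limma estimates from 3 arrays per group, bars are 95% intervals, filled points were called and dotted lines mark a difference of 1 either way. Klf4, Klf5, Tfcp2l1, Bcl3, Nr0b1 and Icam1 are called lower in all 3 groups, Mcl1 in spontaneous cells, and Myc and Pim2 lie on the positive side.

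The profiles over the 12 arrays were also compared with those of all other genes, by the root mean square difference in log2 signal after each gene was centred on its own mean. For Lifr the nearest were Zfp654 (0.261), Fsd1l (0.302) and its partner subunit Il6st (0.319), against 0.596 for the spread of Lifr about its own mean. Stat3 was nearest to B3galnt1 (0.148), Acap1 (0.151) and Ech1 (0.158), with an own spread of 0.433. Socs3, with an own spread of 0.859, was nearest to Slc1a1 (0.263), Ppm1j (0.27) and Apobec1 (0.301). Jak2 was nearest to Numb (0.191), Reck (0.197) and Eps15 (0.21), with an own spread of 0.515. Pim1 was nearest to Epha2 (0.208), Arc (0.231) and Gadd45a (0.245), with an own spread of 0.679. Arc, Epha2 and Gadd45a shared with Pim1 a value near day 0 in the library labelled sorted CPC replicate 3. Arc was at 8.08 there (8.03 to 8.15 at day 0), Epha2 at 9.87 (9.93 to 10.13 at day 0) and Gadd45a at 9.10 (9.04 to 9.55 at day 0). These are descriptions over 12 arrays that share the group differences.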

How the data were processed

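The deposited table held 35557 probe sets on 12 one-colour arrays. The submitters' processing notes name RMA and Affymetrix Expression Console 1.3.1 for these values, which are log2 signals as deposited; the table does not state its log base, inferred here from the range. Gene names came from the platform annotation: 21789 probe sets had 1 symbol, and the one with the highest mean was kept for 999 genes with several, leaving 19938 genes. Array medians were 6.09 to 6.26. The sources used here do not give the probes' genome build.

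Groups followed the labels. A single fit of group means to the 12 arrays (limma 3.58.1 in R 4.3.3) gave 6 contrasts, moderated with a prior variance that followed signal (degrees of freedom: 8 residual, 5.01 prior); it was tested on simulated data. The genes and lists were chosen with earlier results of these data known, so their directions are not independent support. Named were the 9 genes, up to 6 called and 4 uncalled genes of each list per comparison, and the 3 nearest profiles; marker genes were named after their values were seen. Alternatives are given in the closing section. Promoters came from RefSeq.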

Additional observations from a re-analysis of the deposited data

Results flagged for a closer look

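The only gene of all 19938 called between day 4 groups was Fos, an immediate early transcription factor gene, which differed between sorted and spontaneous cells. It was named after its values were seen. Fos measured 8.30, 8.84 and 8.41 in the sorted group, 6.37, 7.03 and 6.80 in spontaneous cells, 6.88, 6.93 and 7.05 in cardiac cultures and 9.34, 9.28 and 8.67 at day 0. Its difference between sorted and spontaneous cells was 1.78 (limma, adjusted p = 0.028), with every sorted array above every spontaneous array. The part of sorting or handling in this value was not tested.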

How the results depend on the processing

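Over 26 alternatives, 423 of 468 list counts stayed within 1.5 times the reported count and 45 moved; of 1736 values of single genes 1602 kept direction and side of the threshold, 102 lost a call, 21 gained one and 11 changed sign. In the comparisons with day 0 a test against a log2 difference of 1 (treat) called 0 of the 9 genes, 0 of the pathway list and 0 of the target list in all 3 groups. The share of all genes that treat called is not given here. With no minimum difference the 9 genes gave 5 in spontaneous and 3 in cardiac cells, the pathway list 5, 4 and 6 in spontaneous, cardiac and sorted cells, and the target list 11 in cardiac cells. Leaving out dim genes removed Lif and Stat4, so the pathway list had 0 calls in each of the 3 groups. In cardiac cells, array weights and a fit of the 6 arrays compared each gave 2 calls among the 9 genes, and a robust prior gave 4 targets. In sorted cells array weights gave 2 pathway calls. Fits without the libraries labelled sorted CPC 2 and 3, alone or with cardiac 1, were chosen after seeing the data. They left 1 sorted library and also moved list counts. With cardiac 1 also left out these were 3, 5 and 5, the target list had 10 calls in sorted cells, and 2 targets (Tfcp2l1 and Nr0b1) were called lower in sorted than in spontaneous cells.

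Leaving out 1 array in turn gave 1 to 3 calls among the 9 genes in spontaneous cells (1 without day 0 replicate 2 or spontaneous replicate 2 or 3) and 1 to 2 in cardiac cells (2 without cardiac replicate 1 or sorted CPC replicate 1 or 3). It gave 4 to 9 targets in spontaneous and 4 to 8 in cardiac cells, and 1 to 2 pathway calls in sorted cells. Signs changed for Jak2 in sorted cells without day 0 replicate 3 (-0.0037, range over arrays left out up to 0.41) and Jak1 in cardiac cells without cardiac replicate 3 (0.03, range from -0.19). For Pim1 in sorted against cardiac cells the sign changed with array weights (-0.068), without sorted CPC replicate 3 (-0.20, range up to 0.81), without sorted CPC 2 and 3 (-0.70) and with cardiac 1 also left out (-0.60). Without sorted CPC 2 and 3, Pim3 was -0.14 against cardiac cells, and against spontaneous cells Pim1 was -0.49 and Pim3 -0.10, the last pair also with cardiac 1 left out (-0.49 and -0.10). The cause of these moves was not tested, except that treat and the absence of a minimum difference change the threshold itself.

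With the replicate number as a block no list count moved by over 1.5 times (3, 1 and 3 calls among the 9 genes), and all genes called numbered 688, 435 and 416 against 711, 439 and 420. Correlations of the deviations of same-numbered samples ran from -0.382 to 0.307, and 6 of 18 pairs were over 0.1. The labels do not state a pairing, and correlations of both signs do not settle whether same-numbered samples were paired. No scaling alternative moved the median of all genes by over 0.1. The number of arrays limits the precision, and signals near the median gene, such as those of Lif and Jak2 at day 0, are not shown to exceed background.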

Other observations

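Markers of other cell types moved between the groups beside the 9 genes. Fibroblast or feeder markers (8 genes; log2 of the mean linear signal) were at 7.05 to 7.71 at day 0 and at 6.34 to 6.87 on the day 4 arrays. Dcn and Col1a2 were called lower in spontaneous and cardiac cells and Dcn in sorted cells. Of all genes, 1.57%, 0.943% and 1.32% were called lower in spontaneous, cardiac and sorted cells. All arrays lay below day 0 for 6, 7 and 6 of the 8 genes in these groups, beside 21.6%, 16.2% and 11.3% of all genes. Visceral endoderm markers (Ttr, Afp, Apob and Apoa1) were at 5.79 to 5.93 at day 0 and at 8.48 to 10.42 in cardiac cultures. All 4 were called higher there, as were 1.26% of all genes. In sorted cells they were at 6.28 to 8.37. Mesoderm and cardiac progenitor markers (8 genes) were at 8.79 to 9.06 in spontaneous cells and 8.02 to 9.19 in cardiac cultures. In the libraries labelled sorted CPC 1, 2 and 3 they were at 9.33, 7.25 and 7.33, of which the last pair lies within or below the day 0 range of 7.27 to 7.55. The summed level of the primitive streak markers, of which 3 of 4 were measured, was 11.39, 10.01 and 8.0 in these libraries, all above the 6.5 to 6.79 of day 0. Their part in the values of the 9 genes was not tested.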
